A study of Mus musculus with 6 samples.

Results

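Genes of insulin and insulin-like growth factor (IGF) signalling were followed across the mouse brain at 3 ages. The 10 genes were chosen by symbol in the feature lists of the 6 deposited count matrices, which hold 19465 genes by a rule that uses no measured value, although earlier results of these data were known when the set was proposed. They are the ligand Igf1, the receptors Igf1r, Igf2r and Insr, the receptor adaptors Irs1 and Irs2, and the IGF binding proteins Igfbp2, Igfbp4, Igfbp5 and Igfbp6. Each symbol named 1 feature in all 6 sections, and all 10 genes passed the filter on low counts in every region tested. UMIs, the molecular tags that count captured probe products, were counted on coronal sections of formalin-fixed, paraffin-embedded (FFPE) brain by Visium, in which an array of barcoded spots records the position of each molecule. The mice were untreated male C57BL/6J animals, with 2 mice and 1 section per mouse at postnatal day 21 (P21), at 12 to 15 weeks (adult) and at 28 months (aged). P21 mice were bred from purchased parents, adult mice were purchased from the Jackson Laboratory and aged mice came from the National Institute on Aging. By this account source and age go together, whereas the study's methods name only the Jackson Laboratory. P21 and adult sections were mounted on Visium v1 slides, whereas aged sections were moved to Visium v2 slides with the CytAssist instrument after hybridization with a revised probe design, as the study's methods state. The sample labels name 1 slide kit for all sections, while the file headers carry Space Ranger 2.0.0 for P21 and adult and 3.1.1 for aged sections. In aged vs. adult, age cannot be told apart from slide version, probe design and mouse source. By the account of mouse sources above, age and source cannot be told apart in P21 vs. adult either.

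IGF1 and insulin bind receptor tyrosine kinases, which phosphorylate the adaptors IRS1 and IRS2 and through them switch on PI3 kinase and AKT. AKT keeps FOXO transcription factors out of the nucleus and relieves the brake of the TSC complex on mTOR, a kinase that drives protein synthesis. IGF binding proteins hold IGFs in the extracellular space, lengthen their life and limit or direct their access to the receptors. In the brain, IGF1 is made by microglia, by some neurons and by cells of the meninges and vessels, and the pathway acts on neuronal survival, myelination and glucose use.

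The sections held 42422997 to 106783660 UMIs, with 12074.5 to 25535 as the median per spot, and 20336 spots were kept. Regions were drawn again by clustering, with the 10 genes and 54 other genes of the pathway kept out of the clustering, and were named by marker panels. They were cortex (CTX, 6503 spots), hippocampus (HP, 1918), thalamus (TH, 3311), hypothalamus (HY, 3844), striatum (STR, 845), fiber tracts (FT, 2206), ventricular system (VS, 336), reticular thalamus (RT, 241) and meninges (1132). The cortex was divided into upper layers, deep layers and an unnamed remainder, and the hippocampus into CA1, CA3, dentate gyrus (DG) and a matrix of glia-rich layers, which gave 14 zones. Levels are CPM, the UMIs of a gene relative to all UMIs of a zone after scaling by TMM. The number of probes per gene was not used here, so levels are not compared between genes. A spot holds several cells, so fewer cells of a type and less RNA per cell cannot be told apart in any level below. The VS spots carried choroid plexus markers at the highest level in every section, but the medial habenula panel summed to 43.7 CPM in them in adult section 1 and to 1312 to 3029 CPM in the other 5 sections. The HY panel summed to 2559 CPM in the HY of adult section 1 and to 3307 CPM in aged section 2, against 6786 to 10551 CPM in the other 4 sections, so the hypothalamic tissue sampled differed between sections. No spot barcode was shared between aged and other sections, and 2612 to 3364 barcodes were shared within each slide version, whose slides carry fixed barcode sets.

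All 10 genes are annotated as protein-coding in GENCODE vM21 on GRCm38. Igf1 lies at chr10:87858265-87937042 on the plus strand, Igf1r at chr7:67952827-68233668 (plus), Igf2r at chr17:12682406-12769664 (minus), Insr at chr8:3122061-3279617 (minus), Irs1 at chr1:82233101-82291416 (minus) and Irs2 at chr8:10984681-11008458 (minus). Igfbp2, at chr1:72824503-72852474 (plus), and Igfbp5, at chr1:72857932-72874884 (minus), lie close together and converge. Igfbp4 lies at chr11:99041244-99054392 (plus) and Igfbp6 at chr15:102144362-102149511 (plus).

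The 250 bases before the transcription start were read from RefSeq (GRCm38.p6) for 9 of the 10 genes, with 2 entries for Igfbp2. The promoters of the adaptors Irs1 and Irs2 are shown because Irs2 had the widest rise of the set in aged vs. adult, whereas Irs1, its closest relative in the set, was called in no region. Capitals mark CACGTG, the E-box bound by basic helix-loop-helix factors, and TGTTTTG, a core sequence through which FOXO factors act on insulin-responsive promoters. Sequences run 5′ to 3′ on the gene's strand and end 1 base before the RefSeq start, at chr1:82291440-82291689 (minus) for Irs1 and chr8:11008930-11009179 (minus) for Irs2. The GENCODE spans above start further downstream, at 82291416 for Irs1 and 11008458 for Irs2, so the positions below hold for the RefSeq starts only.
Irs1: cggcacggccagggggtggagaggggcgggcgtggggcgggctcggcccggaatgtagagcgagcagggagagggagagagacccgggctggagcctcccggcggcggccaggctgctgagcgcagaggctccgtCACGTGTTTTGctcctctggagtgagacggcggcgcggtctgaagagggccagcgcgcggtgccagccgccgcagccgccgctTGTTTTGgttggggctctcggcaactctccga
Irs2: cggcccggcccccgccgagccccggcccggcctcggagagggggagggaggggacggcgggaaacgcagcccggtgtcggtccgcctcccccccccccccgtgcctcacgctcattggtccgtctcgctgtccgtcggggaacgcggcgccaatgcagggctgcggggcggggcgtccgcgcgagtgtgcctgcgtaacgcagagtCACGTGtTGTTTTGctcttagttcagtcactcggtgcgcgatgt
In Irs2, the E-box began 44 bases and the FOXO core 37 bases before the start, with 1 base between them. In Irs1, the E-box began 115 bases before the start and overlapped 1 copy of the FOXO core, which began at 111, and another copy began at 32. Both strands were searched, and 6.02% of all 32851 promoters of this length held the E-box and 5.56% held the FOXO core. The E-box was also found before Igf2r, at 48 and 7 bases, and in the first Igfbp2 entry, at 142 bases. The GC box GGGCGG, present in 32.7% of all promoters on either strand, was found before Igf1r, Igf2r, Irs1, Irs2 and the first Igfbp2 entry. The forkhead sequence TGTTTAC, present in 3.17% of promoters, was in none of the 10 entries. Such matches are letters in a window and were not tested as binding sites.

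Over whole sections, Igf1 was higher at both P21 and 28 months than in the adult, Irs2 was higher in aged than in adult sections and Igfbp6 was lower at P21 than in the adult. Igf1, the ligand, measured 18.8 and 18.9 CPM at P21, 12.5 and 11.9 in adult mice and 20.2 and 19.7 in aged mice. Both adult sections were lowest, with no overlap with either other age. It rose by 0.63 ± 0.08 on the log2 scale (SE) in P21 vs. adult (adjusted p = 7.27e-04, edgeR's quasi-likelihood test) and by 0.71 ± 0.08 in aged vs. adult (adjusted p = 1.84e-04). UMIs of Igf1 were detected in 25.5% of all spots, the lowest share among the 10 genes, whose shares reached 85.7% for Igfbp5.

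Among the receptors, Igf1r, which binds IGF1, measured 82.3 and 83.9 CPM at P21, 102.1 and 108.9 in the adult and 94.3 and 89.5 in aged sections. The adult sections were highest without overlap, and the differences of −0.35 (adjusted p = 0.00489) and −0.20 (adjusted p = 0.0288) stayed under the fold change of 1.5 that a call required. Igf2r, which carries IGF2 to lysosomes for breakdown, ranged from 32.4 to 37.0 CPM over the 6 sections, and Insr, the insulin receptor, from 26.1 to 31.9 CPM, with neither passing the test in either comparison.

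Of the adaptors, Irs1 ranged from 23.8 to 29.3 CPM and passed neither test. Irs2 measured 83.6 and 85.3 CPM at P21, 87.9 and 90.3 in the adult and 165.5 and 152.0 in aged sections, the aged sections standing clear of all others. The rise in aged vs. adult was 0.83 ± 0.06 (adjusted p = 4.16e-05).

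Among the binding proteins, Igfbp6, which prefers IGF2 over IGF1, measured 21.6 and 20.8 CPM at P21, 40.9 and 31.1 in the adult and 31.7 and 32.6 in aged sections. It was lower in P21 vs. adult by −0.76 ± 0.11 (adjusted p = 0.00161). Without adult section 1, the higher of the adult pair, the P21 difference was −0.55 and under the required fold. The aged vs. adult difference of −0.16 then changed sign to 0.05. The TH and HY, lowest for Igfbp6 among the larger regions, made up more of the P21 sections. They held 666 and 734 of 3598 spots in P21 section 1 and 617 and 651 of 3314 in P21 section 2. The adult sections had 437 and 407 of 2917 and 513 and 476 of 3259. The part of this mix in whole-section differences was not tested. Igfbp2 measured 100.5 and 99.1 CPM at P21, 128.0 and 87.4 in the adult and 94.7 and 68.0 in aged sections, so that the adult values spanned those at P21. Its aged vs. adult difference of −0.41 (adjusted p = 0.0910) was called without adult section 2 (−0.66) or aged section 1 (−0.66), and its P21 vs. adult difference turned from −0.11 to 0.19 without adult section 1. Igfbp4 and Igfbp5 ranged from 68.8 to 108.3 and from 147.6 to 168.5 CPM over the sections and were not called. In P21 vs. adult, 2 of 10 genes were thus called over whole sections, against 5.19% of all genes tested. In aged vs. adult, 2 of 10 were called, against 8.87%.

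**Figure D1:**
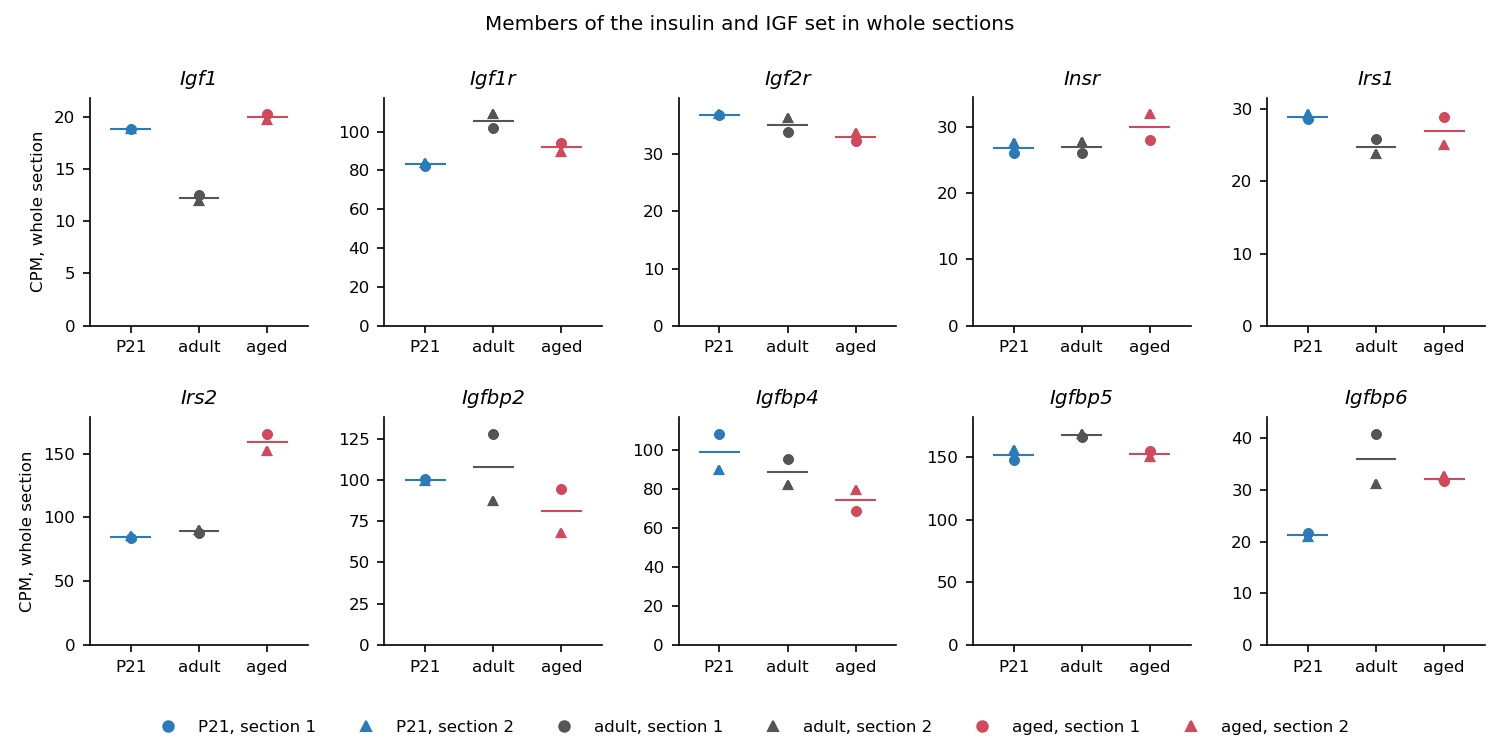
Level of each of the 10 genes in each whole section, in CPM on a linear axis from 0, at P21, in adult and in aged mice. Points are sections (n = 2 per age) and lines are age means. Irs2 stands at 165.5 and 152.0 CPM in the aged sections, above all others, and Igf1 is lowest in both adult sections.

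Levels of Igf1 and the binding proteins differed more between zones than those of the receptors and adaptors. The mean level over the 6 sections differed between the highest and the lowest of the 14 zones by 1.5 times for Insr, 1.75 times for Igf1r, 1.80 times for Irs2, 2.22 times for Irs1 and 2.44 times for Igf2r. The same ratio was 7.0 for Igf1, 7.04 for Igfbp5, 11.0 for Igfbp4, 14.6 for Igfbp6 and 47.7 for Igfbp2.

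Igf1 was highest in the TH (32.9 ± 7.4 CPM, SD over 6 sections), the meninges (31.9 ± 12.7) and the HP matrix (25.0 ± 12.2), and lowest in CA3 (4.69 ± 1.61). Neighbouring zones in this order overlapped in every case. Against the mean of the other 5 larger regions, with the section as a block, Igf1 was higher in the TH by 1.49 ± 0.13 (log2, adjusted p = 6.39e-11) and lower in the STR by −1.09 ± 0.22 (adjusted p = 1.64e-04). The STR value rests on few molecules, since Igf1 gave 11 to 32 UMIs there per section. Both tests pooled the 3 ages. In the aged sections the TH (33.3 and 42.2 CPM) lay below the HP matrix (34.1 and 45.4) and the meninges (38.0 and 55.0). In aged section 1 it also lay below the FT (35.1 CPM).

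The receptors and Irs2 were called in no region of this test. Igf1r was higher in the TH by 0.42 ± 0.06 (adjusted p = 1.08e-06) and lower in the HY by −0.43 ± 0.07 (adjusted p = 3.19e-06), both under the required fold, and Irs2 was higher in the TH by 0.56 ± 0.07 (adjusted p = 1.83e-07), also under it. Igf2r was highest in the VS (65.1 ± 16.6 CPM), above DG, the next zone (42.6 ± 5.0), in each of the 6 sections though the ranges of both zones over the sections overlapped. Irs1 was highest in DG (38.9 ± 11.5 CPM) and VS (37.0 ± 7.9) and was lower in the STR than in the other regions by −0.71 ± 0.08 (adjusted p = 3.67e-08).

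Igfbp2, a binding protein known from choroid plexus and glia, stood at 914 ± 381 CPM in the VS and 390 ± 75 in the meninges, and every other zone lay below these ranges, the next being upper CTX with 102 ± 16. Within the larger regions it was higher in the TH by 0.90 ± 0.17 (adjusted p = 4.12e-05) and lower in the STR by −0.85 ± 0.23 (adjusted p = 0.00311). These tests pooled the 3 ages. At P21, Igfbp2 in the TH (77.4 and 82.3 CPM) overlapped the CTX (75.0 and 80.8), HP (98.9 and 77.2) and FT (86.3 and 70.0). The P21 STR (63.0 and 66.2) and HY (50.9 and 53.2) lay below the P21 TH. Igfbp4, a mostly inhibitory binding protein, stood at 371 ± 92 CPM in CA1, ranging from 283 to 519 CPM and above the range of every other zone. It was lowest in the HY (33.6 ± 13) and TH (34.0 ± 16.7). It was higher in the HP by 1.15 ± 0.12, in the CTX by 1.07 ± 0.12 and in the STR by 0.59 ± 0.14, and lower in the HY by −1.45 ± 0.15 and in the TH by −1.32 ± 0.14, with the largest adjusted p at 7.85e-04.

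Igfbp5, a binding protein that also holds to extracellular matrix, was high in the meninges (311 ± 27 CPM), FT (309 ± 186), VS (287 ± 110.1) and DG (271 ± 58), whose ranges overlapped, and low in CA3 (47.6 ± 16.3) and CA1 (44.2 ± 9.4). Among the larger regions only the FT was called, at 1.05 ± 0.18 (adjusted p = 6.15e-06), in this test of all ages together. At P21, Igfbp5 in the FT (134.9 and 137.8 CPM) lay below the TH (191.4 and 197.4) and the HP (161.5 and 167.2). In the aged FT it was at 533.8 and 546.8 CPM. Igfbp6 marked the upper CTX, with 88.2 ± 15.6 CPM and a range of 71.8 to 113 CPM that no other zone reached except the meninges, at 74.7 CPM in adult section 1. Next came deep CTX (53.1 ± 10.7) and the meninges (52.6 ± 17.1), and the TH was lowest (6.02 ± 3.66). It was higher in the CTX by 2.18 ± 0.16 (adjusted p = 3.26e-12) and in the STR by 0.88 ± 0.22, and lower in the TH by −1.84 ± 0.22 and in the HY by −1.12 ± 0.21.

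In all, 15 of 60 gene and region pairs were called in this regional test. Per region, the calls were 2 of 10 in the CTX (15.1% of all genes tested), 1 of 10 in the HP (16.0%), 4 of 10 in the TH (17.2%), 2 of 10 in the HY (12.0%), 5 of 10 in the STR (11.2%) and 1 of 10 in the FT (22.5%).

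**Figure D2:**
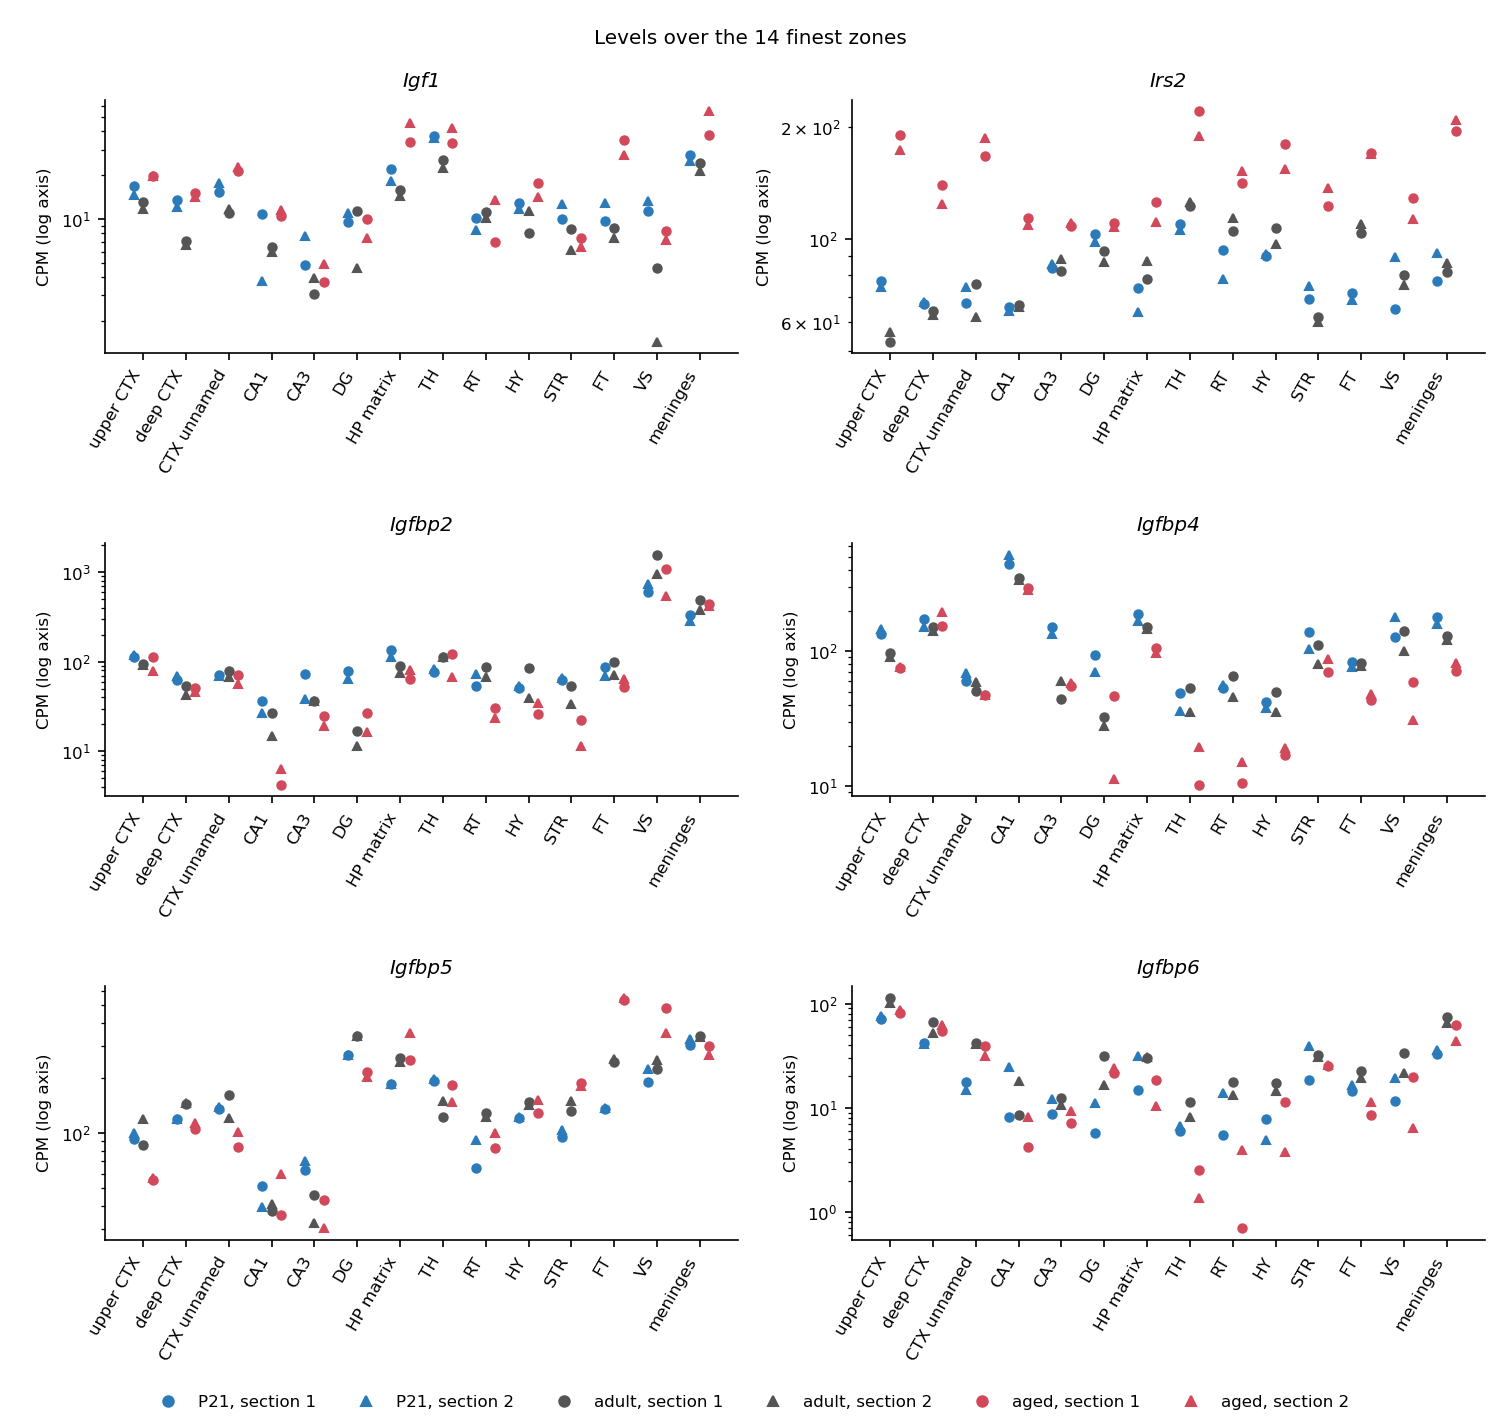
Levels of 6 of the genes over the 14 zones, in CPM on log axes. Each point is 1 section, coloured by age. Igfbp2 peaks in the VS and meninges, Igfbp4 in CA1 and Igfbp6 in the upper CTX, and aged values of Irs2 lie above those of both other ages in 14 of 14 zones.

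P21 vs. adult gave 6 calls among 60 gene and region pairs (10.0%), 3 higher and 3 lower, where 6.03% of all gene and region tests were called. The median log2 fold change of the 10 genes lay between −0.13 and 0.10 in the 6 regions, and that of all genes between −0.0075 and 0.0020. Per region, the calls were 2 of 10 in the CTX (4.85% of all genes), 1 of 10 in the HP (6.76%), 1 of 10 in the TH (7.06%), 0 of 10 in the HY (3.99%), 0 of 10 in the STR (4.18%) and 2 of 10 in the FT (9.3%). At an unadjusted p under 0.05, 3 of 10 genes passed edgeR's test in the HY and 3 of 10 in the STR, and DESeq2 called 0 in both. The share of all genes at this unadjusted threshold was not taken. Such counts, here and below, are therefore not read as an excess over other genes.

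Igf1 rose at P21 in the CTX and TH. In the CTX it measured 14.6 and 14.3 CPM at P21 and 9.39 and 8.91 in the adult, a difference of 0.66 ± 0.12 (adjusted p = 0.00299). In the TH it measured 37.5 and 36.1 CPM at P21 and 25.6 and 22.6 in the adult, a difference of 0.61 ± 0.13 (adjusted p = 0.0103). The TH call was lost without P21 section 1 (0.58), P21 section 2 (0.64) or adult section 2 (0.53), and its P21 values stayed above the adult values in each pairing of sections. Homeostatic microglia markers (8 genes) summed to 280 and 303 CPM at P21 and 292 and 317 in the adult TH, and to 319 and 336 against 290 and 294 in the CTX. Their part in the rise of Igf1 was not tested.

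The receptors were called in 0 of 18 tests by edgeR and by DESeq2, with 5 at an unadjusted p under 0.05. Igf1r was lower at P21 with an adjusted p under 0.05 in the CTX (−0.28), TH (−0.44), HY (−0.40) and FT (−0.47), each under the required fold, and every P21 section lay below both adult sections in these regions. Igf2r lay between −0.17 and 0.22 and Insr between −0.07 and 0.11 in the 6 regions.

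Irs2 fell at P21 in the FT, with 71.8 and 68.6 CPM against 104.3 and 110.3 in the adult, a difference of −0.61 ± 0.09 (adjusted p = 3.82e-05). Leaving out P21 section 2 or adult section 2 left it just under the required fold, at −0.58 and −0.57. In the FT, Irs1 was 30.9 and 31.5 CPM at P21 and 24.6 and 22.2 in the adult (0.41 ± 0.13, adjusted p = 0.0230), which was under the required fold and opposite in sign. In DG, where no test was run, Irs1 measured 47.6 and 56.5 CPM at P21 and 26.4 and 37.9 in the adult.

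Igfbp2 rose at P21 in the HP, the largest rise of the 10 genes in this comparison, with 98.9 and 77.2 CPM against 49.5 and 39.9 in the adult (1.0 ± 0.15, adjusted p = 0.00118). DG showed the widest gap of the 4 HP zones, with 78.0 and 64.8 CPM at P21 and 17.0 and 11.5 in the adult. The choroid plexus panel (8 genes), whose tissue holds the most Igfbp2, moved the same way in the HP, at 3041 and 1699 CPM at P21 against 529 and 235 in the adult, with 6 of 8 genes higher in both P21 sections. The meningeal panel (8 genes) did likewise, at 110.4 and 124 CPM against 41.0 and 30.4. The astrocyte panel (7 genes) was also higher in the HP, at 1746 and 1692 CPM at P21 against 1395 and 1429, with 7 of 7 genes higher in both P21 sections. In DG it was at 1227 and 1131 against 754 and 743 (6 of 7). No gene of these 3 panels was at 0 in the HP, and their part in the difference of Igfbp2 was not tested.

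Igfbp5 fell at P21 in the FT, from 244.7 and 253.6 CPM in the adult to 134.9 and 137.8, a difference of −0.87 ± 0.08 (adjusted p = 1.85e-07). In the TH it was higher at P21 by 0.51 ± 0.12 (adjusted p = 0.0156) and in the STR lower by −0.51 ± 0.12 (adjusted p = 0.0108), both under the required fold. Markers of the fiber tracts, mostly myelin genes (8 genes), in the FT summed to 80639 and 97695 CPM at P21 and to 42036 and 40899 in the adult, and oligodendrocyte precursor markers (6 genes) to 472 and 516 against 186 and 204, with no gene at 0. Their part in the lower FT values of Irs2 and Igfbp5 was not tested.

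Igfbp6 fell at P21 in the CTX, from 71.5 and 59.0 CPM in the adult to 44.8 and 41.5 (−0.59 ± 0.10, adjusted p = 0.00257). The call was lost without P21 section 2 (−0.55) or adult section 1 (−0.45). In the upper CTX, its home zone, it measured 71.8 and 76.8 CPM at P21 and 113 and 100.1 in the adult, and in the unnamed cortical remainder 17.7 and 14.7 against 42.1 and 41.1. Igfbp4 was higher at P21 in the HP by 0.57 ± 0.09 (adjusted p = 0.00188), just under the required fold. In CA3 it measured 151 and 135 CPM at P21 and 43.9 and 60.5 in the adult, and in CA1 443 and 519 against 349 and 337.

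Aged vs. adult gave 19 calls among 60 pairs (31.7%), 10 higher and 9 lower, where 14.8% of all gene and region tests were called. All 10 rises were of Igf1 (4 regions), Irs2 (5 regions) and Igfbp5 (1 region), and all 9 falls were of Igfbp2, Igfbp4 and Igfbp6 (3 regions each). The median log2 fold change of the 10 genes lay between −0.08 and 0.19 in the regions, and that of all genes between −0.01 and 0.03. Per region, the calls were 2 of 10 in the CTX (10.2% of all genes), 2 of 10 in the HP (11.7%), 4 of 10 in the TH (13.7%), 4 of 10 in the HY (11.5%), 2 of 10 in the STR (15.0%) and 5 of 10 in the FT (26.8%).

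**Figure D3:**
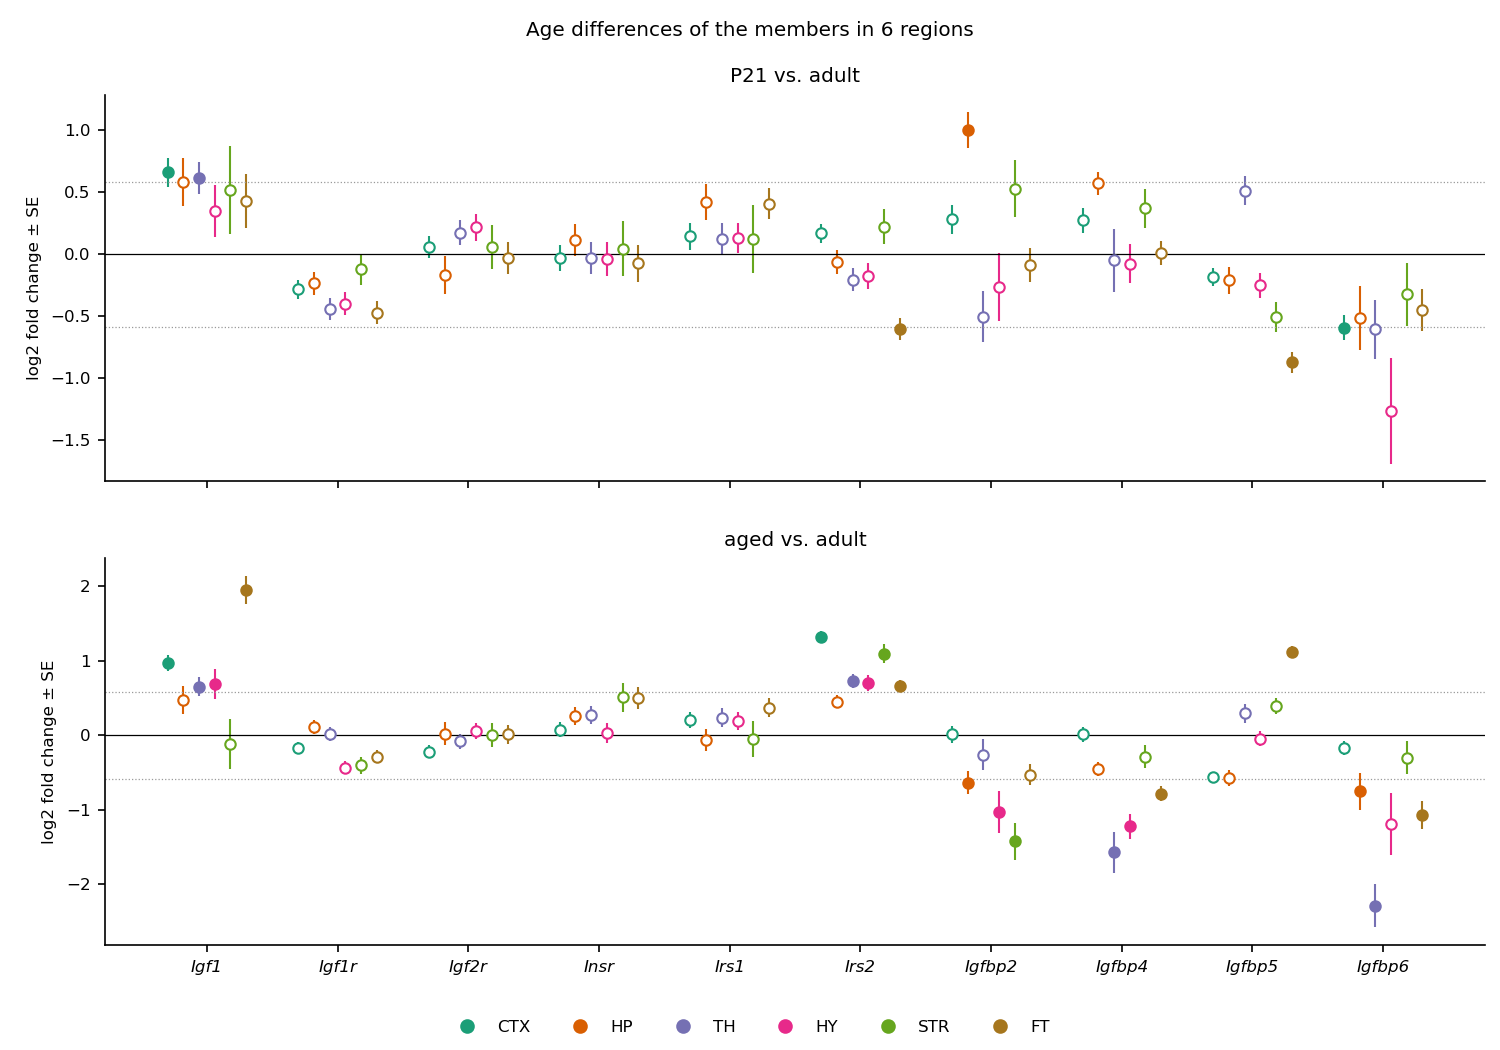
Log2 fold change ± SE of each gene in 6 regions, P21 vs. adult above and aged vs. adult below, from 2 sections per age. Filled points passed an adjusted p of 0.05 and a fold change of 1.5, whose bounds are the dotted lines. Igf1 in the FT (1.95) and Igfbp6 in the TH (−2.29) are the ends of the aged range, the latter from 32 and 17 UMIs in the aged sections.

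Igf1 rose most in the aged FT. There it measured 35.1 and 27.5 CPM in the aged sections, 8.64 and 7.47 in the adult and 9.77 and 12.8 at P21, a rise of 1.95 ± 0.19 in aged vs. adult (adjusted p = 7.24e-08). The lowest aged value was above the highest value of the other 4 sections. Microglial markers stood higher in the same spots. Homeostatic microglia markers (8 genes) summed to 1343.5 and 1344 CPM in the aged FT and to 504 and 565 in the adult, and reactive microglia markers (8 genes) to 669 and 727 against 130.1 and 130.3. In both panels 8 of 8 genes were higher in both aged sections, and 1 reactive gene was at 0 in a section. The astrocyte panel (7 genes) summed to 2608 and 2646 against 1885 and 1862. The part of these cells in the Igf1 rise was not tested.

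In the CTX, Igf1 rose from 9.39 and 8.91 CPM to 18.0 and 17.9, by 0.97 ± 0.11 (adjusted p = 7.34e-05). Here the homeostatic microglia sum overlapped between ages, and the reactive sum was slightly higher in both aged sections. The homeostatic one was at 294 and 276 CPM in aged against 290 and 294 in adult sections (3 of 8 genes higher, 3 lower). The reactive one was at 92.4 and 84.7 against 83.6 and 82.3 (4 of 8 higher, 1 lower). In deep CTX the reactive sum was 88.7 and 84.1 against 71.7 and 74.3 (6 of 8 higher, 1 lower). In upper CTX it was 99.1 and 80.8 against 91.0 and 107.8 (3 of 8 higher, 1 lower). The CTX astrocyte panel was at 1471 and 1447 against 1358 and 1258 (3 of 7 higher, 3 lower). Their part in the Igf1 rise was not tested. Aged values of Igf1 were higher without overlap in upper CTX (19.8 and 19.7 against 13.2 and 11.7 CPM) and deep CTX (15.1 and 14.3 against 7.08 and 6.65). The same held for the unnamed remainder (21.3 and 22.7 against 11.0 and 11.8).

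In the TH, the highest zone for Igf1 by the mean over all 6 sections, aged sections had 33.3 and 42.2 CPM against 25.6 and 22.6 (0.65 ± 0.13, adjusted p = 0.00340). That call was lost without adult section 2 (0.56) or aged section 2 (0.48). In the HY, 17.7 and 14.1 CPM stood against 8.03 and 11.4 (0.69 ± 0.20, adjusted p = 0.0289), and 9 of 15 alternatives lost this call, with 0.46 without adult section 1, 0.54 without aged section 1 and 0.69 without either P21 section. The HP matrix had 34.1 and 45.4 CPM against 16.0 and 14.4, while the whole HP (0.47, adjusted p = 0.0788) and the STR (−0.12, adjusted p = 0.820) did not pass. The meninges had 38.0 and 55.0 CPM against 24.3 and 21.3. Microglial panels were also higher in the TH, HY and HP matrix. In the TH the reactive panel was at 123 and 112 against 87.1 and 83.8 CPM (6 of 8 genes higher in both aged sections) and the homeostatic one at 402 and 359 against 292 and 317 (4 of 8). In the HY the reactive panel was at 129 and 114 against 96.2 and 92.5 CPM (6 of 8) and the homeostatic one at 398 and 367 against 348 and 357 (2 of 8). In the HP matrix the reactive panel was at 234 and 249 against 158 and 149 CPM (7 of 8) and the homeostatic one at 924 and 1023 against 604 and 628 (6 of 8). In DG, where Igf1 overlapped (9.98 and 7.39 against 11.3 and 4.60 CPM), both panels were higher too. The reactive one was at 127 and 112 against 77.4 and 76.5 (5 of 8). The homeostatic one was at 357 and 264 against 189 and 205 (4 of 8). In the whole HP the reactive panel was at 157 and 157 against 142 and 135 (5 of 8, with 2 lower). The homeostatic one was at 403 and 375 against 330 and 330 (4 of 8, with 3 lower). The part of these panels in the Igf1 levels was not tested.

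**Figure D4:**
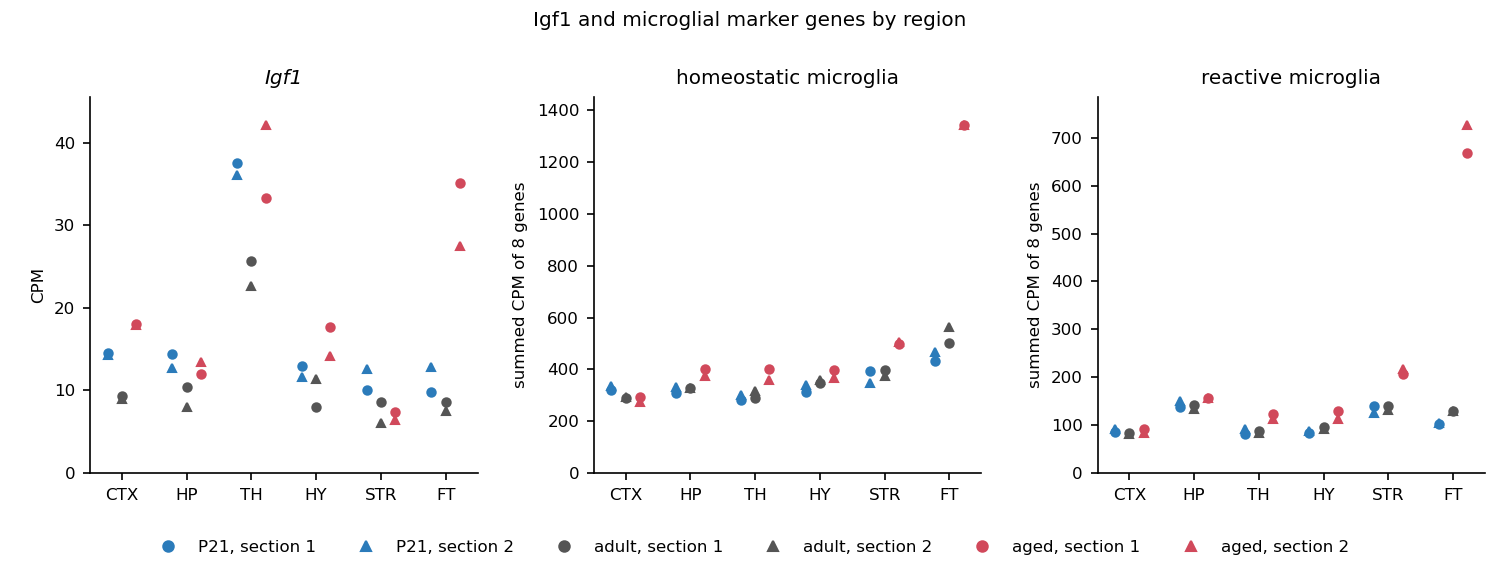
Igf1 in CPM and the summed CPM of 8 homeostatic and 8 reactive microglia marker genes in 6 regions, 1 point per section, on linear axes from 0. In the aged FT all 3 quantities stand above the other sections. In the aged CTX Igf1 is at 18.0 and 17.9 CPM, the homeostatic sum overlaps its adult values and the reactive sum lies slightly above them.

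The receptors were called in 0 of 18 tests of aged vs. adult by edgeR and by DESeq2, with 6 at an unadjusted p under 0.05. Igf1r was lower with an adjusted p under 0.05 in the HY (67.7 and 67.1 against 88.1 and 93.8 CPM, −0.44 ± 0.09, adjusted p = 0.00676), STR (−0.41) and FT (−0.29), all under the required fold. Insr was higher in the FT (0.50 ± 0.14, adjusted p = 0.00628) and STR (0.51 ± 0.19, adjusted p = 0.0492), also under it. Igf2r lay between −0.22 and 0.06 in the 6 regions. In the VS, where no test was run, Igf2r measured 93.7 and 65.5 CPM in aged and 72.5 and 56.4 in adult sections.

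Irs2 was called in more regions than any other of the 10 genes. In the CTX it went from 64.4 and 61.01 CPM in the adult to 160.1 and 153.8, by 1.32 ± 0.07 (adjusted p = 1.39e-06). It rose in the STR by 1.10 ± 0.12, in the TH by 0.73 ± 0.09, in the HY by 0.70 ± 0.10 and in the FT by 0.66 ± 0.08, and was higher in the HP by 0.45 ± 0.09 (adjusted p = 0.00377), which was under the required fold. In the upper CTX the aged values of 191 and 174 CPM were above 53.1 and 56.2 in the adult and 77.4 and 74.3 at P21, whereas in DG 110.5 and 107.8 CPM stood against 93.1 and 86.8. The FT call was lost with no filter on low counts (0.50). Irs1 was called in 0 of 6 regions by edgeR and by DESeq2, with 1 at an unadjusted p under 0.05, and lay between −0.06 and 0.37, with 0.37 ± 0.13 in the FT (adjusted p = 0.0198).

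Igfbp5 was called in 1 region, the FT. There it went from 244.7 and 253.6 CPM to 533.8 and 546.8, by 1.12 ± 0.08 (adjusted p = 1.52e-09), and its FT levels at P21, in the adult and in aged sections did not overlap. In the CTX (−0.56 ± 0.07, adjusted p = 1.71e-04) and HP (−0.57 ± 0.11, adjusted p = 0.00262) it was lower, just under the required fold. In the STR it was higher by 0.39 ± 0.10 (adjusted p = 0.00687), also under that fold. DG had 215 and 202 CPM in aged and 339 and 337 in adult sections, and upper CTX 55.2 and 57.2 against 86.4 and 119. In the other HP zones the ages overlapped, with 249 and 352 against 258 and 243 in the matrix. CA1 had 35.9 and 59.9 against 37.6 and 40.8, and CA3 43.0 and 30.3 against 46.2 and 32.2. The matrix made up 128 of 283 and 114 of 240 HP spots in aged sections and 234 of 350 and 279 of 422 in adult sections. The part of this mix in the HP differences was not tested. The VS, where no test was run, had 481 and 352 against 224 and 250, and the meninges 297 and 267 against 340 and 333.

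Igfbp2, Igfbp4 and Igfbp6 fell in 3 regions each. Igfbp4 fell in the TH from 53.6 and 35.7 CPM to 10.2 and 19.5 (−1.57 ± 0.28, adjusted p = 0.00216), in the HY from 49.8 and 35.2 to 17.0 and 19.2 (−1.22 ± 0.16, adjusted p = 0.00113) and in the FT from 81.3 and 77.7 to 43.9 and 48.5 (−0.78 ± 0.10, adjusted p = 3.08e-06). The aged values lay below all 4 other sections in each of these regions. In the CTX, at 104.3 and 124 against 115 and 110.7 CPM, the difference was 0.01 ± 0.10 (adjusted p = 0.926), and in the HP −0.45 ± 0.09 (adjusted p = 0.00409), under the required fold. The cortical zones differed in direction. Igfbp4 was lower in upper CTX (74.5 and 76.5 against 97.0 and 90.8 CPM) and the unnamed remainder (47.6 and 47.8 against 50.9 and 59.5). Deep CTX was higher, with 154 and 196 against 152 and 141. In CA1, its home zone, Igfbp4 measured 293 and 283 CPM in aged and 349 and 337 in adult sections.

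Igfbp6 fell in the TH from 11.3 and 8.13 CPM to 2.52 and 1.37 (−2.29 ± 0.29, adjusted p = 3.37e-04). The aged sums there were 32 and 17 UMIs, in 667 and 411 spots. A gene entered an age test if over 10% of the region's spots detected it in either age compared. Igfbp6 entered this test only through the adult sections, and the size of its fall in the TH rests on few aged molecules. It fell in the FT from 22.7 and 19.2 to 8.61 and 11.3 (−1.07 ± 0.19, adjusted p = 8.70e-05) and in the HP from 23.1 and 20.1 to 11.9 and 13.9 (−0.75 ± 0.25, adjusted p = 0.0400). The FT call was lost among interior spots, whose neighbours all belong to the FT (−0.67). The HP call was lost among interior spots (−0.67) and without adult section 1 (−0.65) or adult section 2 (−0.85). In the CTX, its home region, 56.1 and 60.4 CPM stood against 71.5 and 59.0 (−0.17 ± 0.10, adjusted p = 0.186).

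Igfbp2 fell in the STR from 53.6 and 33.8 CPM to 22.3 and 11.4 (−1.43 ± 0.24, adjusted p = 1.31e-04). It fell in the HY from 85.4 and 39.1 to 26.1 and 34.4 (−1.03 ± 0.28, adjusted p = 0.0227) and in the HP from 49.5 and 39.9 to 31.7 and 26.5 (−0.64 ± 0.16, adjusted p = 0.0103). The HY call was lost in 7 of 15 alternatives, with −0.36 without adult section 1 and −1.03 without either P21 section. The HP call was lost among interior spots (−0.41) and without adult section 1 (−0.47) or aged section 2 (−0.50). Among the HP zones, Igfbp2 was lower in both aged sections in CA1 (4.22 and 6.40 against 26.9 and 14.9 CPM) and CA3 (24.9 and 19.1 against 36.2 and 36.2). It overlapped in the matrix (64.9 and 81.4 against 90.2 and 74.1) and DG (26.9 and 16.6 against 17.0 and 11.5). The matrix, with the most Igfbp2 of these zones, was a smaller part of the aged HP. The part of this mix in the HP fall was not tested. In the VS, the home zone of Igfbp2, 1085 and 540.1 CPM in aged overlapped 1565 and 960 in adult sections.

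Some marker panels of other regions also stood lower in aged sections outside their home, and others did not. The RT panel (8 genes) summed to 748 and 675 CPM in the aged TH against 519 and 598 in the adult (2 of 8 genes higher, 5 lower). The HP panel overlapped in the CTX, at 861 and 952 against 894 and 828 CPM. The CTX panel (8 genes), whose tissue holds much Igfbp4 and Igfbp6, summed to 739 and 736 CPM in the aged FT against 1944 and 1896 in the adult (8 of 8 genes lower), to 309 and 242 against 1159 and 1029 in the HY (7 of 8) and to 1293 and 1070 against 1677 and 1798 in the TH (6 of 8). In the HP it did not move the same way, at 4087 and 3509 against 3303 and 3650 CPM (4 of 8 lower). The choroid plexus panel, whose tissue holds the most Igfbp2, summed to 84.0 and 59.8 against 935 and 621 CPM in the TH, where Igfbp2 was not called (−0.26, adjusted p = 0.362). In the STR, where Igfbp2 fell most, that panel was at 1488 and 457 against 799 and 552 CPM. In the HY, where Igfbp2 also fell, it was lower, at 187 and 89.4 against 664 and 402 CPM (3 of 8 genes lower in both aged sections), and so was the meningeal panel, at 32.8 and 37.9 against 62.7 and 59.1 (7 of 8). In the HP, the third region with a call, the choroid plexus panel was at 1017 and 64.6 against 529 and 235 CPM (0 of 8) and the meningeal panel at 18.5 and 21.9 against 41.0 and 30.4 (5 of 8). The HP panel (8 genes), whose tissue also holds much Igfbp4, was at 431 and 446 against 799 and 761 CPM in the TH (6 of 8 lower, 1 higher). The part of such off-region signal in the falls was not tested. Nor was the part of the lower CTX panel in the FT in the rises of Igf1, Irs2 and Igfbp5 there.

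Whether the age difference of a gene varied between regions was tested with a term for region by age and the section as a block. The block removes a factor that acts alike on a gene in every region of a section. Whether slide version and probe design act alike in all regions was not tested. In P21 vs. adult, 3 of 10 genes passed, against 11.0% of all genes: Igfbp5 (adjusted p = 1.57e-05), Irs2 (adjusted p = 5.66e-04) and Igfbp2 (adjusted p = 0.0157). Only 1 gene passed without P21 section 2 or without adult section 2. In aged vs. adult, 8 of 10 passed, against 49.5% of all genes, with Igfbp5 (adjusted p = 2.69e-09), Irs2 (adjusted p = 2.85e-06) and Igfbp4 (adjusted p = 7.83e-06) leading. Igf1 (adjusted p = 4.20e-04), Igf1r (adjusted p = 1.15e-04), Igfbp6 (adjusted p = 0.00617), Igfbp2 (adjusted p = 0.0287) and Insr (adjusted p = 0.0464) also passed, and Igf2r (adjusted p = 0.323) and Irs1 (adjusted p = 0.276) did not. Without adult section 1, or with sums thinned to equal depth, 5 genes passed.

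The spatial structure of each gene within a section was read from Moran's I, a spatial autocorrelation score deposited by the authors for each gene and section, which is near 0 for a random pattern and rises toward 1 as neighbouring spots become alike. The 4 binding proteins had mean scores from 0.283 to 0.370 and ranked above 93.66% of genes in each section. Igfbp4 was highest by the mean, with 0.260 to 0.532 over the sections and a mean percentile of 97.8. In adult section 1 Igfbp2 stood above it (0.265 against 0.260). Igf1 (mean 0.109, percentile 84.9), Irs2 (0.0798, 80.2) and Igf1r (0.0609, 72.8) were intermediate, and Irs1 (0.0228, 56.3), Igf2r (0.0150, 43.9) and Insr (0.0094, 37.3) lay near the middle or lower part of all genes. The section median of all genes was 0.0113 to 0.0295 and was highest in both aged sections, so scores are compared within sections by percentile. With 2 sections per age an exact permutation test cannot reach p = 0.05, and none was run.

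**Figure D5:**
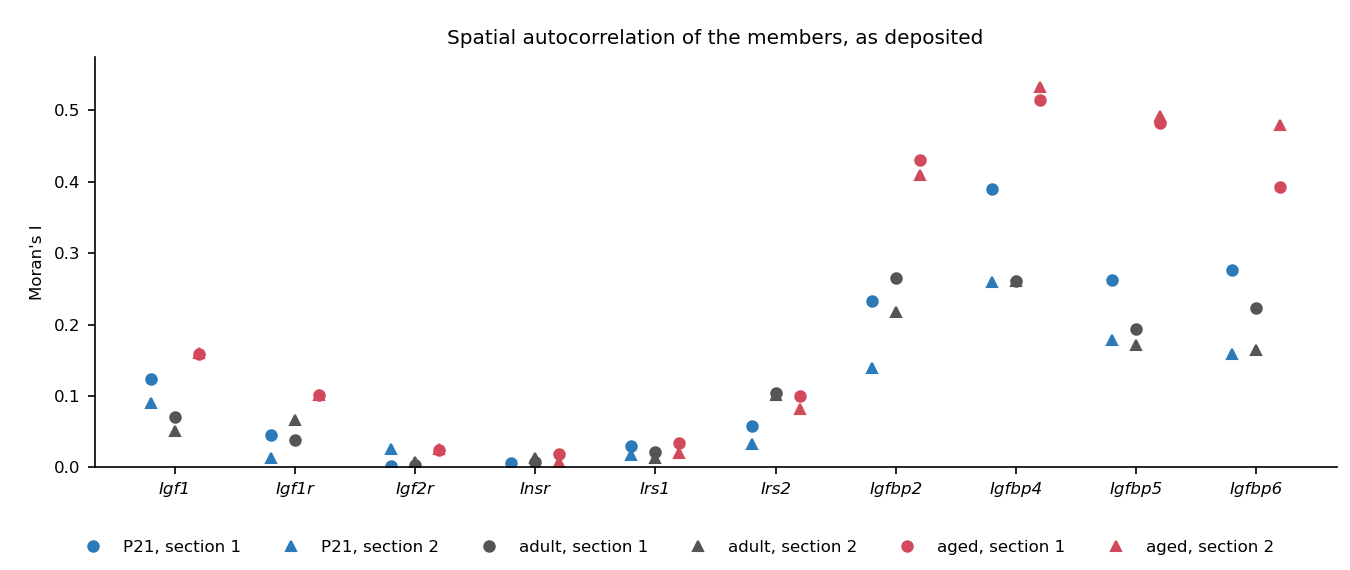
Moran's I of the 10 genes in each section, as deposited, on a linear axis from 0. The 4 binding proteins range from 0.139 for Igfbp2 in P21 section 2 to 0.532 for Igfbp4 in aged section 2. The median over all genes is also highest in aged sections, so heights are not compared between ages.

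Other genes of the pathway were taken from a list of 56, of which 54 were in the files and 45 were tested in a region. In P21 vs. adult, 35 of 262 tests were called (13.4%), 34 higher and 1 lower, in 11 genes, where 6.03% of all gene and region tests were called, 2588 higher and 1415 lower. The higher calls lay in ligands and binding proteins (12 of 18 tests, in Igf2, Igfbp3 and Igfbp7), receptors and adaptors (9 of 57), the PI3 kinase and AKT group (9 of 72) and the mTOR branch (4 of 55). The lower call, named after its value was seen, was Foxo4 in the FT (−0.69). Inppl1, the lipid phosphatase SHIP2 that opposes PI3 kinase, was called in 5 of 6 regions, with 107.9 and 129 CPM at P21 in the FT against 40.0 and 33.2 in the adult. Grb14, an adaptor that inhibits the insulin receptor, was called in 5 of 6 regions, with 184 and 186 CPM in the TH against 104.8 and 109.3. Without P21 section 1 the pathway calls numbered 23.

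In aged vs. adult, 38 of 262 tests were called (14.5%), 33 higher and 5 lower, in 14 genes, a share near the 14.8% of all gene and region tests. The mTOR branch gave 14 of 58 tests higher, glucose transport 6 of 12, proteases 5 of 12 and receptors and adaptors 6 of 55 higher and 4 lower, while ligands and binding proteins gave 0 of 18. At an unadjusted p under 0.05, 3 of these 18 passed edgeR's test, and DESeq2 called 0. Tbc1d4, the AKT substrate AS160 that governs glucose transporter traffic, was called in 6 of 6 regions, for example 38.0 and 28.9 CPM in the aged TH against 16.7 and 17.8. Tsc2, which with Tsc1 restrains mTOR, was called in 6 of 6 regions, with 132 and 141 CPM in the aged CTX against 65.9 and 62.2. For both, the region-by-age test did not pass (adjusted p = 0.101 and 0.0915). Grb14 was lower in 4 of 6 regions, with 25.1 and 29.3 CPM in the aged CTX against 51.1 and 56.3. The 2 comparisons share their adult sections.

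Genes with the most similar pattern were found by the correlation of log2(CPM + 1) over 78 points, 13 named zones in 6 sections, among 10363 genes. The points share libraries and depth, so the correlations are descriptions. Nearest to Igf1 was Gjb6 (r = 0.81), the astrocyte connexin 30, followed by Arid5a (0.77) and Atp1b2 (0.76). Nearest to Igfbp2 were Pcolce (0.89), Sod3 (0.89) and Slco1c1 (0.87), to Igfbp4 Mpped1 (0.84), Ext1 (0.82) and Sstr4 (0.82), to Igfbp5 Rack1 (0.89), Cdc42ep4 (0.86) and Cald1 (0.85) and to Igfbp6 Pknox2 (0.84), Lamp5 (0.84) and Ngef (0.84). Irs2 was nearest to Tmem135 (0.81), Vps28 (0.80) and Insig2 (0.80), Irs1 to Cdkn1b (0.76), Cdc42ep4 (0.70) and Ttc28 (0.69), Igf2r to Tmem237 (0.77), Dync2li1 (0.76) and Cetn2 (0.75) and Insr to Tnpo1 (0.72), Stat3 (0.70) and Lsm10 (0.70). Igf1r had the weakest neighbours, Pdk2 (0.60), Aifm3 (0.59) and Cpne9 (0.58). Among the 10 genes themselves, no pair reached 0.6, and the most opposed pair was Irs2 and Igfbp4 (−0.56).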

How the data were processed

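Per the file headers and the study's methods, the authors aligned Visium FFPE probe reads to mm10 with Space Ranger 2.0.0 (P21 and adult) or 3.1.1 (aged) and deposited UMI counts per gene and spot. The submitters' processing notes list Space Ranger 2.1.0 and Seurat 5.1.0. Moran's I scores were deposited per section and used as given.

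Spots with at least 250 genes and 500 UMIs were kept and clustered in Python 3.11.15 (leidenalg 0.10.2, 16 clusters, resolution 0.5, 3000 variable genes, 10 principal components, 20 neighbours), then named by markers. Counts summed per section and region were tested with edgeR 4.0.16 (R 4.3.3), glmQLFit and glmQLFTest with TMM, all 6 sections in the fit and age as the factor. Genes had to pass filterByExpr and be detected in 10% of spots. A call required an adjusted p (Benjamini-Hochberg over all genes tested) under 0.05 and a fold change over 1.5. SE is the log2 fold change over the square root of F. Region-by-age and regional tests had the section as a block. Each section came from another mouse, n = 2 per age, so the spread rests on few animals. Pathway genes named were the 2 with the largest mean rise and the 2 with the largest mean fall among those called in at least 3 regions. The 10 genes, marker and pathway lists were chosen with earlier results of these data known. Alternatives were DESeq2 1.42.0, plain CPM, no filter on low counts, glmTreat, 2 ages in the fit, a replicate block, thinning to equal depth, interior spots, leaving out each section and leaving out the FT. Replicate numbers did not pair the sections (correlation of deviations over genes from −0.45 to 0.16 between adult and other sections). Scripts were tested on simulated data.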

Additional observations from a re-analysis of the deposited data

Results flagged for a closer look

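For 8 genes in aged vs. adult and 3 in P21 vs. adult, the age difference varied between the 6 regions in the region-by-age test with the section as a block (edgeR's quasi-likelihood F test, adjusted over all genes). In aged vs. adult, Igfbp5 (adjusted p = 2.69e-09) had the FT at 1.12 and the HP at −0.57. Within the HP it was lower in DG and overlapped in CA1, CA3 and the matrix. Irs2 (adjusted p = 2.85e-06) ranged from 0.45 in the HP to 1.32 in the CTX, and Igfbp4 (adjusted p = 7.83e-06) from −1.57 in the TH to 0.01 in the CTX. Igf1r (adjusted p = 1.15e-04) ranged from −0.44 in the HY to 0.11 in the HP, and Igf1 (adjusted p = 4.20e-04) from −0.12 in the STR to 1.95 in the FT. Igfbp6 (adjusted p = 0.00617) ranged from −2.29 in the TH to −0.17 in the CTX, Igfbp2 (adjusted p = 0.0287) from −1.43 in the STR to 0.01 in the CTX and Insr (adjusted p = 0.0464) from 0.03 in the HY to 0.51 in the STR. In P21 vs. adult, Igfbp5 (adjusted p = 1.57e-05) ranged from −0.87 in the FT to 0.51 in the TH, Irs2 (adjusted p = 5.66e-04) from −0.61 in the FT to 0.22 in the STR and Igfbp2 (adjusted p = 0.0157) from −0.50 in the TH to 1.0 in the HP.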

How the results depend on the processing

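With glmTreat, which tests against the fold of 1.5 itself, the 10 genes had 1 regional call in P21 vs. adult, against 6, and 10 in aged vs. adult, against 19. Over whole sections it gave 0 and 1 calls against 2 and 2, in the regional test 9 against 15, and among pathway genes 10 and 14 against 35 and 38. Leaving out 1 section gave 5 to 9 and 15 to 21 regional calls, 1 to 2 and 2 to 3 whole-section calls, 1 to 4 and 5 to 8 region-by-age results, 14 to 17 calls in the regional test, and 23 to 36 and 37 to 44 pathway calls, P21 before aged in each pair. Thinning to equal depth gave 5 region-by-age results in aged vs. adult. With no filter on low counts the pathway calls were 51 in aged vs. adult.

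Among whole-section differences, Igfbp2 at P21 ranged from −0.36 to 0.19 when 1 section was left out, changing sign without adult section 1, as did aged Igfbp6 (−0.35 to 0.046). Insr at P21 ranged from −0.052 to 0.041, changing sign without P21 section 1 (0.034), without adult section 2 and after thinning (0.00017), and aged Irs1 with no filter (−0.0043). The cause was not tested. None of these had been called. With the replicate block, regional calls were 7 and 20, whole-section calls 2 and 2 and pathway calls 32 and 38. The single-gene results followed were the called regional differences and all whole-section differences, most of them not called. With the replicate block 45 of 45 were the same. The crossed pairing in aged vs. adult, chosen after seeing the data, gave 20 regional, 2 whole-section and 38 pathway calls. With DESeq2, 43 of the 45 single-gene results were the same and 2 were weaker. Low counts limit Igf1 in the STR and Igfbp6 in the TH, with 11 and 17 UMIs in the lowest section.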
